A study of Chlamydomonas reinhardtii with 24 samples.

Results

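The genes described here are those whose messenger RNA was lower after UV-B in the wild type of Chlamydomonas reinhardtii, a unicellular green alga, followed across 4 genotypes. They were chosen on the 6 wild-type libraries. Read counts were divided by the column total and given per 1000000 reads (CPM). A gene was kept if its mean without UV-B was at least 10 CPM, if every UV-B library lay below every library without UV-B, and if the log2 ratio of the means, with 0.5 CPM added to each, was -1 or less. Of 14621 genes, 7559 reached the level limit and 293 met all conditions, which is 3.88% of the 7559. Among 4 identifiers that the rule leaves out, 1 met the other conditions, so 292 genes remained.

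The libraries came from the mutant strains uvr8, co and hy5 and from the wild type (WT, strain CC5325), with 3 libraries from each strain after UV-B and 3 without. Cells grown in acetate medium were washed into minimal medium and kept in dim white light at 20 µmol photons m-2 s-1, which stayed on throughout. The UV-B groups then had 1 h of narrowband UV-B at 0.2 mW cm-2 through a 311 nm filter, while a 360 nm filter kept UV-B from the controls. Each mutant is represented by a single strain in the CC5325 background, which the labels give under an insertion-library name, and no rescued line was part of the libraries, so the mutated gene and other differences of that strain cannot be told apart. The transcript of each mutated gene was not analysed here.

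UVR8 is the photoreceptor through which plants and green algae sense UV-B. When it absorbs UV-B it changes from a dimer to monomers that bind the ubiquitin ligase COP1, and this relieves transcription factors such as HY5, a bZIP protein of plants, from degradation. CO is a CONSTANS-like regulator, and in this alga CONSTANS-type factors act in light-dependent induction of photoprotective genes. The genes such a pathway raises are the better known side of the response, while those that go down are the subject here.

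Library totals ranged from 19267716 to 27686700 counts, and the 50 genes with the most reads took 23.3% to 33.9% of a library. Scaling factors (TMM) of the 18 mutant libraries lay between 0.888 and 1.11. In a common scaling of all libraries they were 0.681 to 0.889 in WT with UV-B and 0.863 to 0.994 in WT without. A CPM is a share of a library, and in bulk RNA fewer cells with a transcript and less of it per cell cannot be told apart. The labels do not say whether the 3 libraries of a group came from separate cultures, so p-values measure the spread between these libraries, which may be technical.

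In WT the 292 genes had a median group mean of 11.5 CPM with UV-B and 31.4 CPM without. Their log2 ratios ran from -3.01 to -1.003 with a median of -1.28, against a median of -0.26 over all genes at the level limit. These values chose the genes and carry no test. The log2 ratio was -2 or less in 41 of them, between -2 and -1.5 in 40, and above -1.5 in 211. Without UV-B, 65 stood at 100 CPM or more and 91 at 20 CPM or less. With TMM-scaled library sizes the median over all genes at the level limit was -0.03 and that of the 292 genes was -1.04, a shift of 0.23 and 0.24, and the same rule then found 160 genes, 148 of them among the 292.

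The limits cut through a continuous range. Cre16.g663900 lay just inside the ratio limit with a log2 ratio of -1.003, and Cre02.g082100 just outside with -0.9998. Cre04.g213350 lay just inside the level limit at a WT mean of 10.03 CPM without UV-B, and Cre16.g694206 just outside at 9.999 CPM. A further 128 genes reached both limits but had overlapping WT libraries.

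The files do not pair identifiers with gene names, and the RefSeq gene table (assembly v5.5) holds 0 symbols for this species beyond locus tags, so genes are given by identifier and without a role. The locus of 284 of the 292 genes occurs in that table. Chromosome 3 held the most by number, 38 of 700 genes at the level limit (5.43%). Over all genes at that limit the share was 3.88%, counting the identifier left out. The share was higher on chromosomes 5 (15 of 192, 7.81%) and 4 (13 of 219, 5.94%), and 3.94% on chromosome 6 and 3.22% on chromosome 12. Among the 284 genes with a locus, 14 genes formed 7 pairs of direct neighbours. Whether this is more or fewer pairs than for randomly drawn genes was not tested. Both members of 2 pairs were called lower in hy5 and a single member of 3 others. Reads of overlapping neighbours can be shared where counting ignores strand, and the strand setting is not given in the sources used here.

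Summed over the 292 genes, the mean level was lower with UV-B than without in every strain, in CPM without TMM scaling. Among the mutants the gap was smallest in uvr8 and widest in hy5. It was wider still in WT, but the rule chose the genes for their fall there, so the place of WT is a description. The sum was 24594, 23569 and 20206 CPM in uvr8 with UV-B, against 23643, 30748 and 29294 CPM in uvr8 without UV-B. It was 21050.0, 23768 and 17231 CPM in co with UV-B, against 22239, 32489 and 29263 CPM in co without UV-B. Both of these strains had overlapping groups, because the first library without UV-B was lower than its replicates. In hy5 the sum was 17749.9, 16699.8 and 14055 CPM with UV-B, against 20232, 32058 and 30283 CPM without. In WT it was 9288, 12114 and 9236 CPM with UV-B, against 22048, 26410.2 and 29526 CPM without. The groups of hy5 did not overlap, nor did those of WT, where the rule required it gene by gene. The library numbered 1 was the lowest of the 3 libraries without UV-B in all 4 strains. Its part in the results below was not tested beyond the counts given without it.

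**Figure D1:**
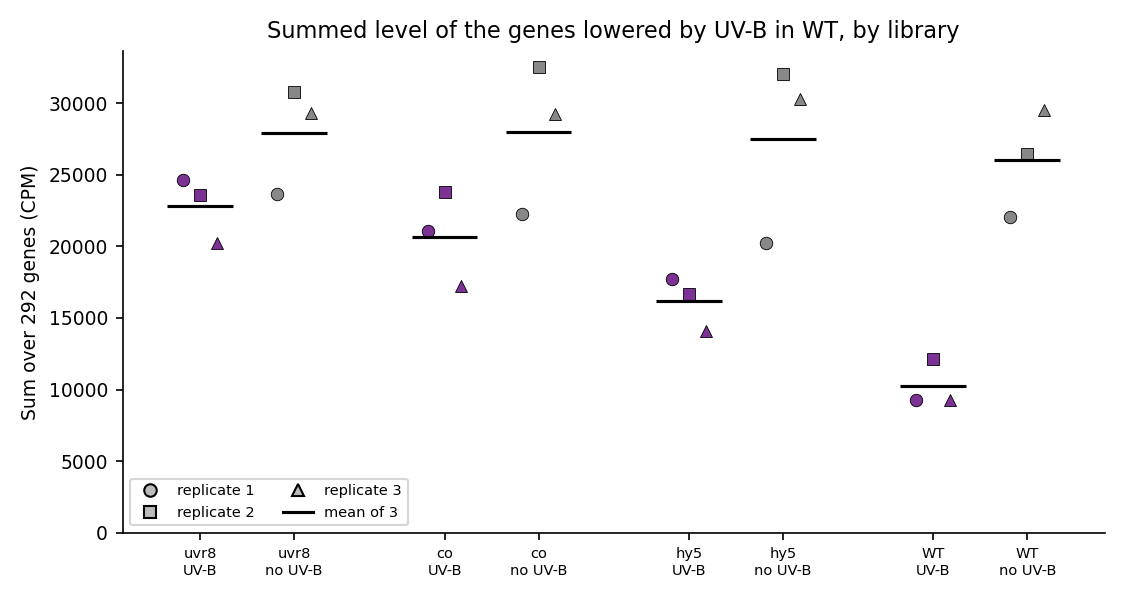
Summed level of the 292 genes, in CPM, in each of the 24 libraries by strain and treatment, with symbols for replicate numbers and a line at the mean of 3. The means with UV-B were 22790 CPM in uvr8, 20683 CPM in co, 16168 CPM in hy5 and 10212 CPM in WT, while those without UV-B lay between 25995 and 27997 CPM.

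Taken by same-numbered libraries, the median log2 difference over the 292 genes was -0.14, -0.15 and -0.40 in uvr8. It was -0.28, -0.49 and -0.77 in co, and -0.44, -1.03 and -1.16 in hy5. WT gave -1.28, -1.14 and -1.58. The median over all genes with a mean of at least 1 CPM stayed between -0.10 and 0.11 in every mutant pair. In WT that median over all genes was -0.34, -0.14 and -0.21. The median of the 292 genes lay below that of all genes in each of the 9 mutant pairs. Replicate numbers did not pair UV-B with no-UV-B libraries, as given below, so these differences are a description. The WT UV-B mean was the lowest of the 8 group means for 276 of the 292 genes and the hy5 UV-B mean for 15. The rule required low values in WT with UV-B and so favours this place of WT, in CPM without TMM scaling. The ranking is a description. The highest mean was most often that of co without UV-B, for 140 genes.

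**Figure D2:**
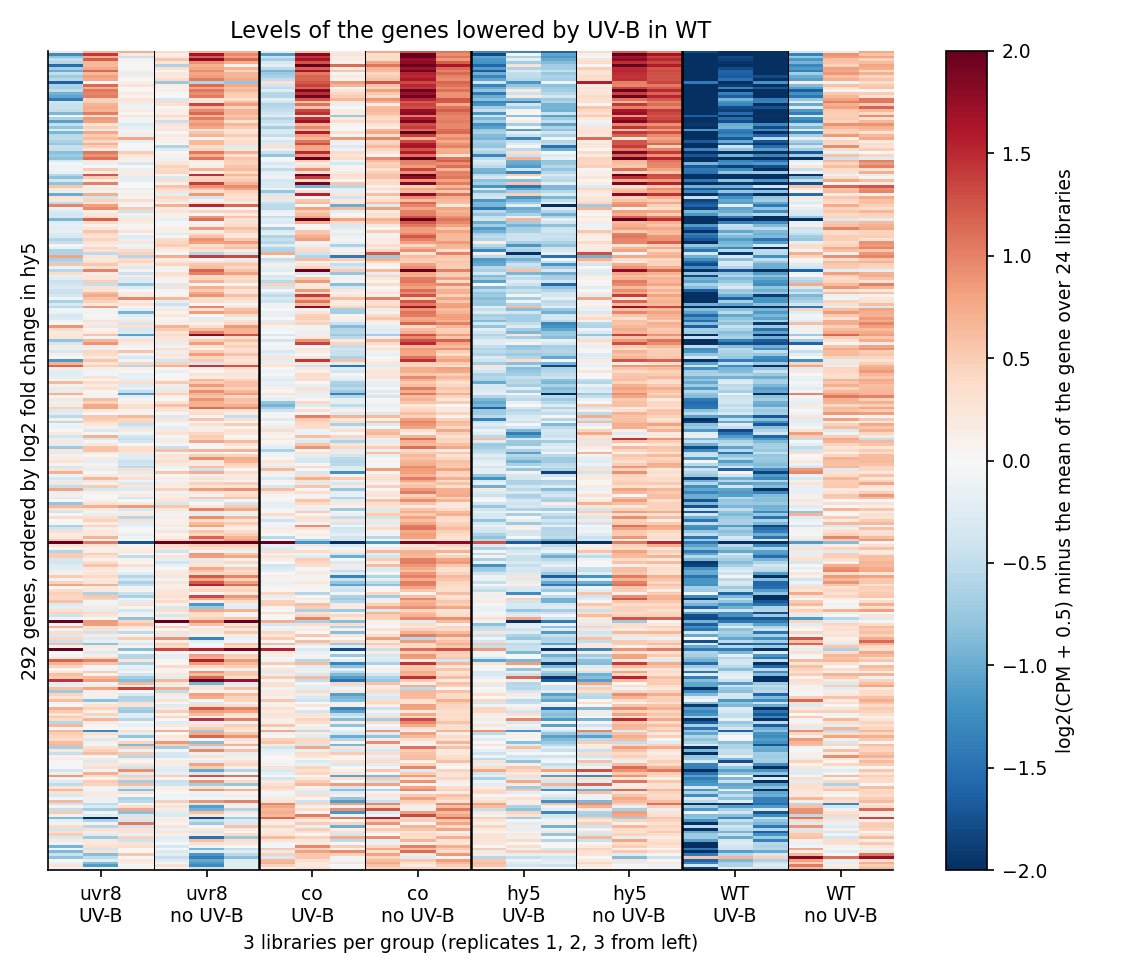
Level of each of the 292 genes in each of the 24 libraries, as log2(CPM + 0.5) minus the mean of that gene over all libraries, with genes ordered from the lowest to the highest log2 fold change in hy5. WT with UV-B is the darkest blue block, hy5 with UV-B is the next, and uvr8 and co with UV-B are mixed.

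The mutant libraries took no part in the choice, so the UV-B effect in each mutant could be tested. The library numbered 1 was lowest without UV-B in WT as in the mutants, so same-numbered libraries may share deviations across strains. Whether such deviations entered both the choice and the mutant values was not tested. The fit used the 18 mutant libraries alone, with edgeR's quasi-likelihood F test and Benjamini-Hochberg adjustment over 13578 genes. All 292 genes passed its filter on low counts. The 13578 genes include many below the level limit of 10 CPM, so shares of all genes given below are not matched to the 292 genes for level. A gene was called at an adjusted p under 0.05.

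In uvr8, the strain labelled as the photoreceptor mutant, edgeR called 0 of the 292 genes lower and 0 higher, against 0.0% of all genes in either direction. At an unadjusted p under 0.05, 30 were lower (10.3%) and 5 higher (1.71%), against 2.88% and 6.82% of all genes. DESeq2 called 1 lower and 0 higher, against 0.109% and 0.176%. The median log2 fold change was -0.30, against 0.03 over all genes, and 237 genes lay below 0. By the ratio of group means in CPM, 227 were below 0 (77.7%), against 41.1% of all genes with a mean of at least 1 CPM. In 41 genes all UV-B libraries lay below all libraries without UV-B, which is 14.04%, against 3.16% of the same genes. In 6 genes they lay above, against 8.99%. When the libraries numbered 1 were left out of all mutant groups, a choice made after seeing the data, 32 genes were called lower and 3 higher in uvr8, against 4.85% and 4.93% of all genes.

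In co, 5 of the 292 genes fell, against 0.0736% of all genes called lower, and 0 rose, against 1.52%. The median log2 fold change was -0.48, against -0.01 over all genes, and 289 genes lay below 0. By the ratio of means 288 were below 0 (98.6%), against 52.4% of all genes. DESeq2 called 26 lower (8.90%), against 0.414% of all genes. The groups did not overlap, with UV-B lower, for 51 genes or 17.5%, against 4.06% of all genes, and with UV-B higher for 0, against 8.64%. The count of 5 moved both ways with the libraries used. Without the libraries numbered 1 it was 42 lower (14.4%) and 1 higher, against 0.97% and 2.84% of all genes. By contrast, edgeR called 0 of the 292 genes without co UV-B replicate 1 or 3 or without co no-UV-B replicate 2 or 3. Shares of all genes are not given for those single-library fits.

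Cre01.g030150 had the strongest called change in co. It stood at 27.1, 37.9 and 26.1 CPM in co with UV-B, against 46.5, 66.6 and 64.3 CPM in co without UV-B. The groups did not overlap, and the log2 fold change was -0.96 (SE 0.22; edgeR adjusted p = 0.0355). In hy5 it stood at 25.5, 16.5 and 19.7 CPM with UV-B, against 44.98, 51.5 and 67.0 CPM without, a log2 fold change of -1.34 (SE 0.22; edgeR adjusted p = 0.000677). In uvr8 the values were 32.6, 30.4 and 26.5 CPM with UV-B, against 40.1, 35.6 and 46.3 CPM without. These groups did not overlap either, but the log2 fold change of -0.49 did not pass (SE 0.22; edgeR adjusted p = 0.498).

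Cre14.g619700, next among the co calls, had 6.47, 6.85 and 4.81 CPM in co with UV-B, against 9.996, 10.6 and 12.7 CPM in co without UV-B. The log2 fold change was -0.88 in co (SE 0.21; edgeR adjusted p = 0.0428) and -1.14 in hy5 (SE 0.21; edgeR adjusted p = 0.00165). In uvr8 it was -0.48 and did not pass (SE 0.20; edgeR adjusted p = 0.481). Its call in co was lost without any single one of the 6 co libraries, with adjusted p between 0.054 and 0.261.

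In hy5, 123 of the 292 genes fell, which is 42.1%, against 3.2% of all genes called lower. By edgeR 0 rose, against 6.74% of all genes. DESeq2 called 158 lower and 0 higher, against 5.04% and 8.2% of all genes, and 0 were higher at an unadjusted p under 0.05, against 11.8%. The median log2 fold change was -0.79, against -0.03 over all genes. Of the 292 genes, 288 lay below 0 and 96 at -1 or less. By the ratio of means 291 were below 0 (99.7%), against 59.3% of all genes. The groups did not overlap, with UV-B lower, for 161 genes or 55.1%, against 13.6% of all genes, and with UV-B higher for 0, against 11.5%. The count depended on single libraries: it was 80 without hy5 UV-B replicate 2, 81 without hy5 UV-B replicate 3, 73 without hy5 no-UV-B replicate 2 and 67 without hy5 no-UV-B replicate 3. With the hy5 libraries alone in the fit it was 74. Shares of all genes are not given for these fits. Without the libraries numbered 1 in all mutant groups it was 179 (61.3%), against 6.83% of all genes. In the fit as a whole and in each of the 6 that leave out 1 hy5 library, 58 of the 292 genes were called. The share of all genes called in each of these fits is not given.

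**Figure D3:**
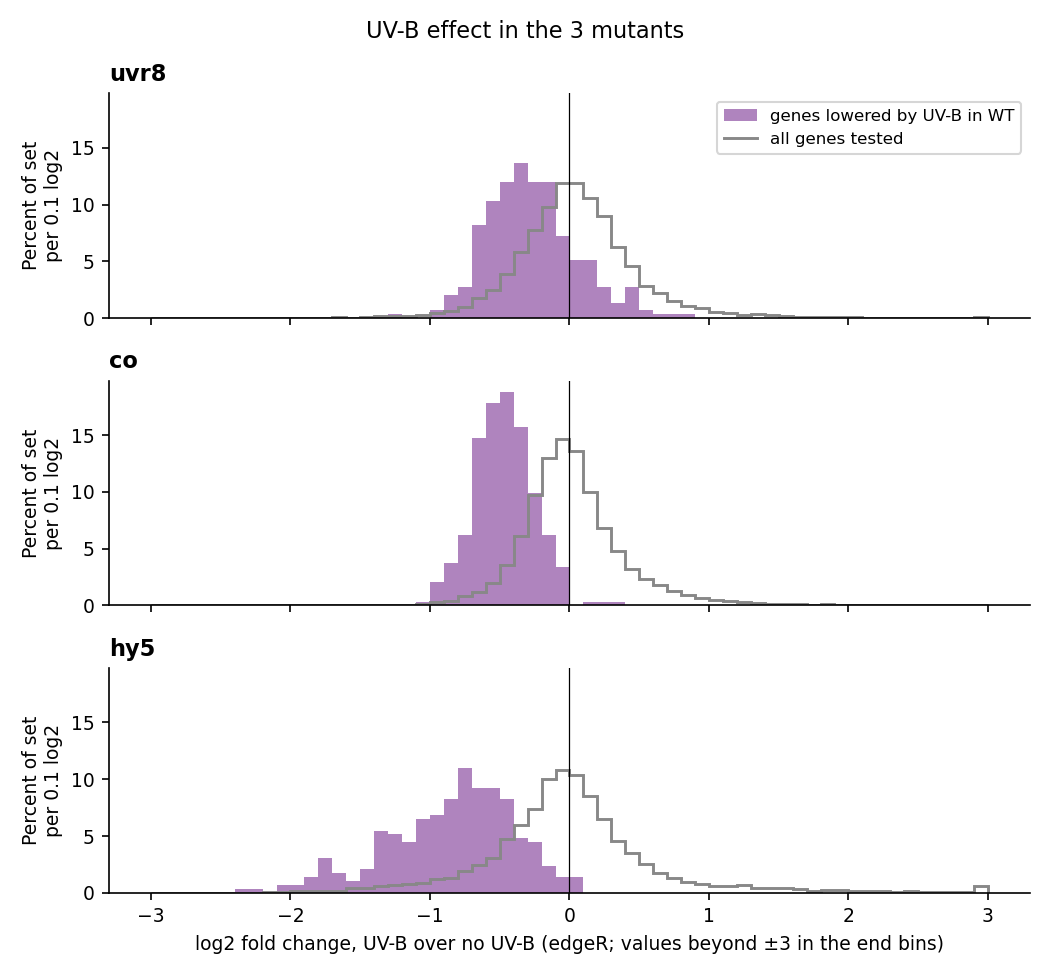
Distribution of the log2 fold change (UV-B over no UV-B, edgeR) in uvr8, co and hy5, in percent of each set per 0.1 log2 units, for the 292 genes (filled) and all 13578 genes tested (line). The median of the 292 genes is -0.30 in uvr8, -0.48 in co and -0.79 in hy5, while the median of all genes lies between -0.03 and 0.03.

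The genes that fell in hy5 make up 28.3% of the 434 genes called lower there among all genes tested. The 5 genes called in co are among 10 called lower there in the whole table, and all 10 were also called lower in hy5. The WT log2 ratio had a median of -1.35 in the 123 genes that fell in hy5 and -1.22 in the other 169. The WT level without UV-B had a median of 28.3 CPM in the 123 and 36.1 CPM in the 169.

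Genes with larger changes in WT also had larger ones in hy5. In the 41 genes with a WT log2 ratio of -2 or less the median log2 fold change was -0.39 in uvr8, -0.58 in co and -1.62 in hy5, and 22 of them were called lower in hy5. In the 40 genes between -2 and -1.5 it was -0.45 in uvr8, -0.61 in co and -1.09 in hy5, with 23 called in hy5. In the remaining 211 it was -0.24 in uvr8, -0.45 in co and -0.69 in hy5, with 78 called in hy5. The order uvr8, co, hy5 from the smallest to the largest median decrease was thus the same in each of the 3 groups of genes, as a description. By gene, 237 lay below 0 in all 3 mutants, hy5 had the lowest of the 3 log2 fold changes for 246, and 195 followed the whole order.

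Cre12.g492700 had the lowest log2 fold change in hy5 of all 292 genes. It stood at 5.54, 5.45 and 4.28 CPM in hy5 with UV-B, against 18.9, 33.2 and 27.97 CPM in hy5 without UV-B. The log2 fold change was -2.32 (SE 0.21; edgeR adjusted p = 1.58e-06), and the call held without any single hy5 library. In uvr8 it stood at 16.9, 22.6 and 23.9 CPM with UV-B, against 18.99, 23.1 and 23.3 CPM without, and the groups overlapped. In co it stood at 12.4, 22.2 and 16.0 CPM with UV-B, against 24.5, 34.4 and 30.3 CPM without, where the log2 fold change of -0.82 missed the threshold (SE 0.20; edgeR adjusted p = 0.0577). In WT it stood at 3.77, 2.68 and 3.07 CPM with UV-B, against 10.8, 17.0 and 24.3 CPM without. With UV-B, hy5 and WT were thus both under 6 CPM while uvr8 and co were all above 12 CPM.

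Of the genes called in hy5, Cre11.g482700 came next, with 8.41, 11.4 and 7.84 CPM with UV-B, against 18.3, 57.0 and 46.8 CPM without. The groups did not overlap and the log2 fold change was -2.08 (SE 0.53; edgeR adjusted p = 0.0185). The spread without UV-B was wide in every strain for this gene, with replicate 1 lowest, and the call in hy5 was lost without UV-B replicate 1 or 3 or without no-UV-B replicate 2 or 3, with adjusted p of up to 0.0781.

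Cre03.g800310, with the lowest WT ratio of -3.01, passed the threshold in none of the mutants. It stood at 9.36, 35.6 and 17.7 CPM in hy5 with UV-B, against 28.8, 124.6 and 88.6 CPM in hy5 without UV-B, where the log2 fold change was -1.90 with an SE of 0.69 and missed the threshold. In hy5 it was lower with UV-B at each of the 3 replicate numbers, but the numbers did not pair these libraries. Its replicates differed by more than 2 times within every group, and the groups of hy5 overlapped.

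Cre09.g392350 held the highest mean CPM of the 292 genes, not corrected for length. It stood at 1049, 1219 and 819 CPM in hy5 with UV-B, against 905, 2207 and 1874 CPM in hy5 without UV-B. In uvr8 it stood at 1559, 1698 and 740.5 CPM with UV-B, against 1434, 2899 and 2142 CPM without. Values in co were 1021, 1199.8 and 757 CPM with UV-B, against 716, 1754 and 1405 CPM without. The groups overlapped in all 3 mutants and edgeR called no change, with adjusted p of 0.364 in hy5, 0.539 in uvr8 and 0.909 in co. In WT it stood at 491, 628 and 297 CPM with UV-B, against 1423, 1582 and 1687 CPM without.

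**Figure D4:**
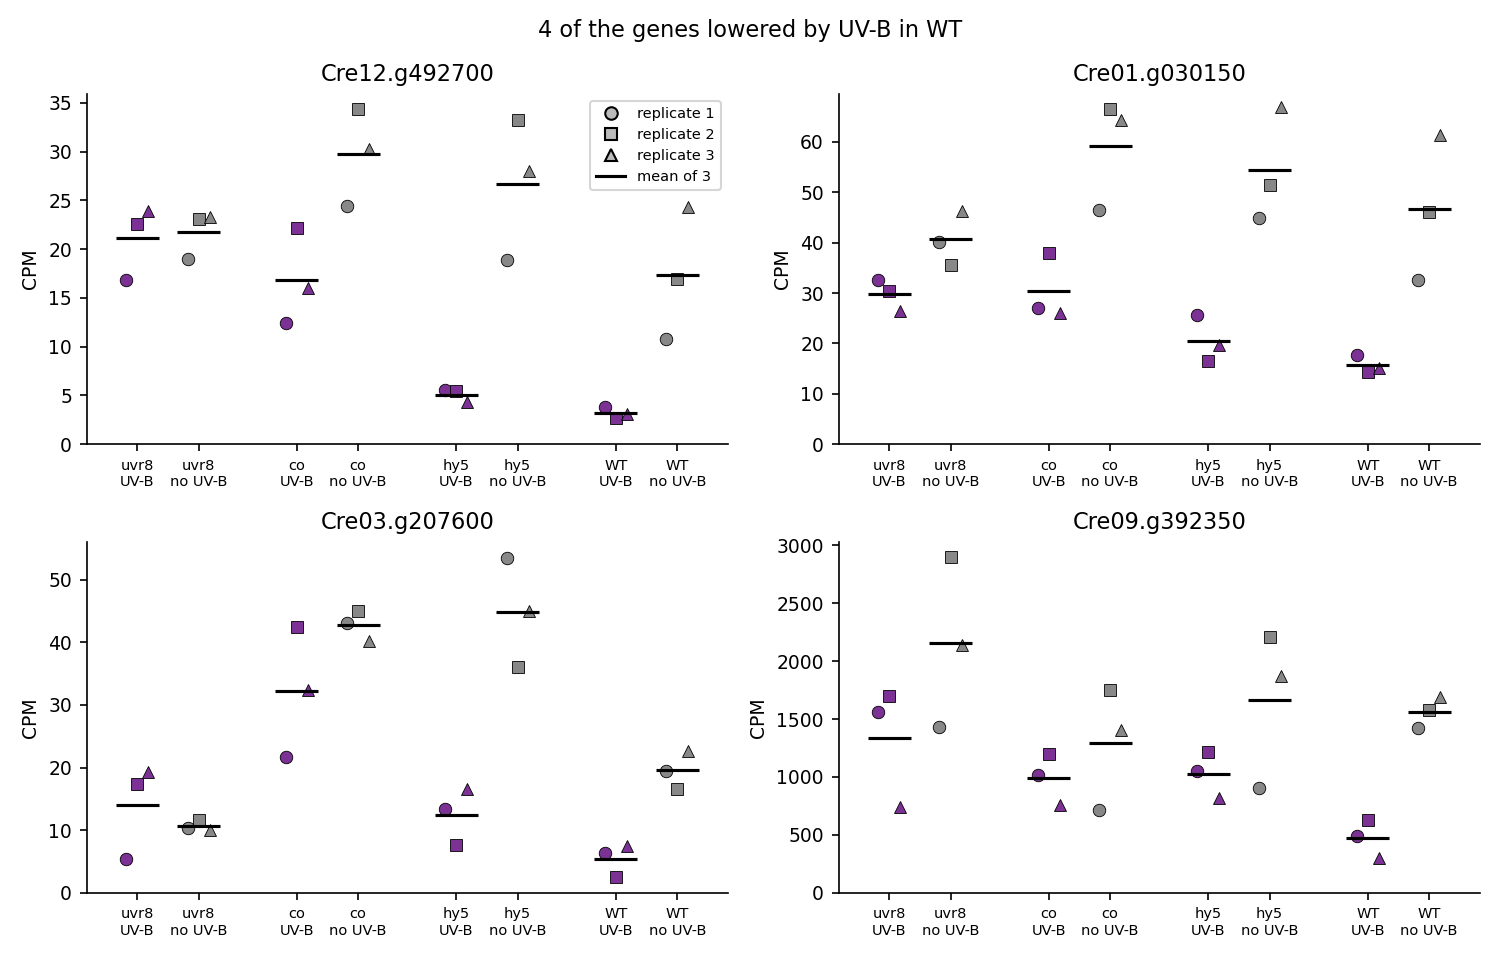
CPM in each of the 24 libraries for 4 of the genes, by strain and treatment, with symbols for replicate numbers and a line at the mean of 3. Cre12.g492700 is lowest with UV-B in hy5 and WT. In co it is also lower with UV-B, without overlap, but was not called. Cre01.g030150 is lower with UV-B in each strain. Cre03.g207600 is lower in uvr8 than in co and hy5 without UV-B, and Cre09.g392350 overlaps between conditions in the 3 mutants.

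Whether the mutants differ from each other in their response was tested as the difference of their UV-B effects in the same edgeR fit. These differences share libraries with each other and with the effects above. For hy5 minus uvr8, 11 of the 292 genes were called lower, against 0.42% of all genes, and 0 higher, against 3.54%. This count ranged from 4 to 24 with 1 library left out, and shares of all genes are not given for those fits. The count was 25 with DESeq2, against 1.11% of all genes, and 23 without the libraries numbered 1, against 0.889%. The median difference was -0.55, against -0.08 over all genes, and 268 genes lay below 0. For hy5 minus co, 1 gene was called lower, against 0.00736% of all genes, and 0 higher, against 0.921%, with a median of -0.32 against -0.02. For co minus uvr8, edgeR called 0 lower and 0 higher, against 0.0% and 0.287% of all genes. There 14 genes were lower (4.79%) and 0 higher at an unadjusted p under 0.05, against 2.24% and 3.73% of all genes. DESeq2 called 1 lower and 0 higher, against 0.0586% and 1.31%, and the median was -0.18 against -0.04. Most genes called in hy5 and not in co or uvr8 were therefore not shown to differ between the strains.

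Cre12.g492700 was the gene called in both hy5 differences. The difference was -2.23 against uvr8 (SE 0.29; edgeR adjusted p = 0.000141), and it passed without any single library. Against co it was -1.498 (SE 0.29; edgeR adjusted p = 0.017), and it no longer passed without co UV-B replicate 2, co no-UV-B replicate 1 or 3, hy5 UV-B replicate 2 or 3, or hy5 no-UV-B replicate 3. The adjusted p then lay between 0.0511 and 0.0616.

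Cre12.g540700 stood at 18.5, 21.6 and 29.4 CPM in hy5 with UV-B, against 49.6, 62.1 and 58.2 CPM in hy5 without UV-B. In uvr8 it stood at 48.2, 56.7 and 53.8 CPM with UV-B, against 51.3, 43.4 and 52.8 CPM without. The hy5 groups lay far apart while the uvr8 groups overlapped, and the difference of -1.29 passed (SE 0.24; edgeR adjusted p = 0.00444), also without any single library.

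**Figure D5:**
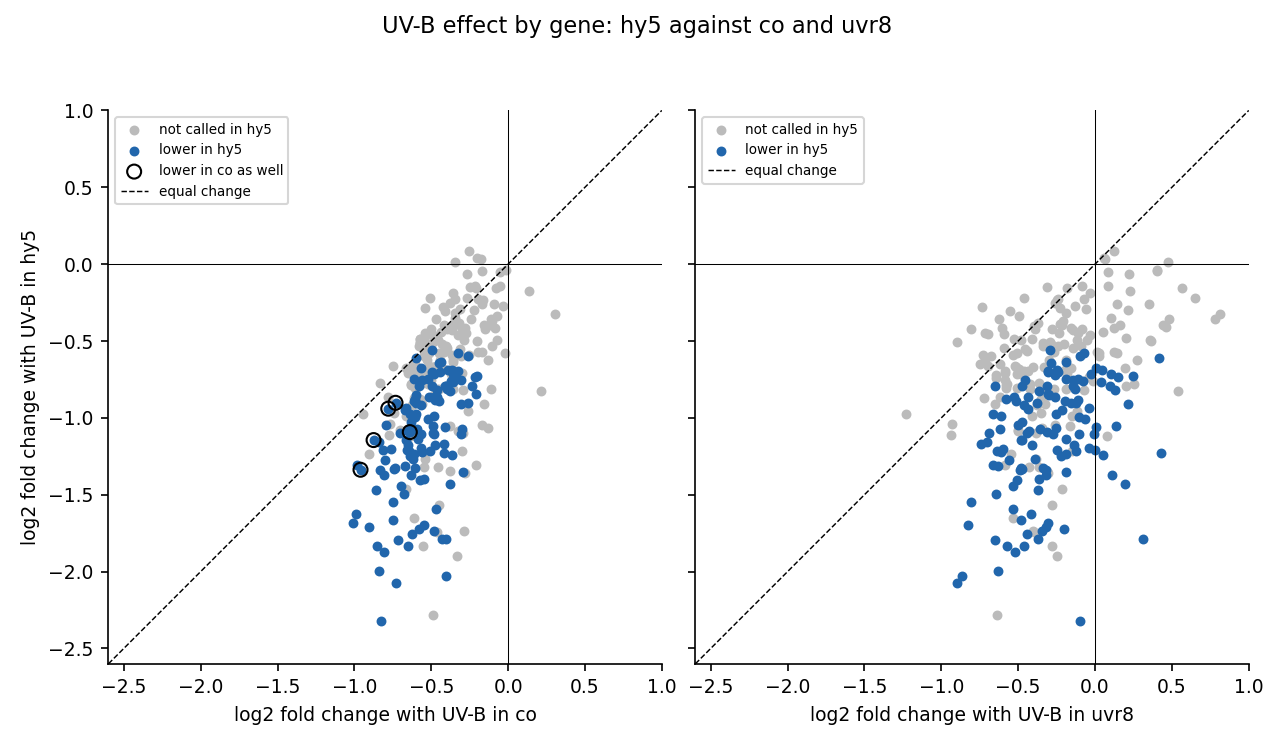
Log2 fold change with UV-B (edgeR) of each of the 292 genes in hy5 on the vertical axis, against co on the left and uvr8 on the right, with the dashed line at equal change. Most points lie below the line, the 123 genes that fell in hy5 are blue, and the 5 that also fell in co are ringed.

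Without UV-B, the medians of the 292 genes lay close together in the 3 mutants. For co against uvr8 the median log2 fold change was 0.13, with 3 genes called lower and 9 higher, against 3.23% and 3.76% of all genes. For hy5 against uvr8 it was 0.06, with 1 gene called lower and 4 higher, against 1.97% and 1.22% of all genes. For hy5 against co it was -0.05, with 0 called either way by edgeR, against 0.0663% and 0.0368% of all genes. In that comparison 6 were lower (2.05%) and 3 higher (1.03%) at an unadjusted p under 0.05, against 3.31% and 3.0% of all genes, and DESeq2 called 0 either way, against 0.359% and 0.503%. The share called lower among the 292 genes was thus 1.03% in co and 0.342% in hy5 against uvr8, below that of all genes, and the share called higher was 3.08% in co and 1.37% in hy5. Replicate numbers paired these libraries, and a fit blocked on that number called more against uvr8. In co against uvr8 it called 8 genes lower (2.74%) and 38 higher (13.0%), against 7.5% and 11.6% of all genes. In hy5 against uvr8 it called 5 lower (1.71%) and 16 higher (5.48%), against 5.15% and 6.0%. In hy5 against co it called 0 either way, against 0.295% and 0.405%.

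Among the genes called without UV-B, Cre03.g207600 had the largest log2 fold changes. It stood at 53.5, 36.1 and 45.1 CPM in hy5, 43.0, 44.97 and 40.3 CPM in co, and 10.4, 11.6 and 9.98 CPM in uvr8, without overlap between uvr8 and the other two. The log2 fold change was 1.96 for hy5 against uvr8 (SE 0.37; edgeR adjusted p = 0.00994) and 1.84 for co against uvr8 (SE 0.37; edgeR adjusted p = 0.0101). The hy5 call was lost without uvr8 no-UV-B replicate 2 or 3 (edgeR adjusted p = 0.0529 and 0.0584). The co call was lost without uvr8 no-UV-B replicate 3 (edgeR adjusted p = 0.0511). With UV-B it stood at 13.3, 7.56 and 16.5 CPM in hy5, 21.7, 42.4 and 32.3 CPM in co, and 5.33, 17.4 and 19.2 CPM in uvr8. UV-B thus went with a lower level in hy5, at a log2 fold change of -1.79 (SE 0.36; edgeR adjusted p = 0.00399), and not detectably in uvr8. With UV-B the values of uvr8 and hy5 overlapped, so uvr8 stood below hy5 without UV-B alone. WT stood between them without UV-B, at 19.5, 16.7 and 22.7 CPM.

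Cre03.g144967 went the other way between the strains. Without UV-B it stood at 21.5, 43.3 and 32.3 CPM in hy5 and 31.2, 43.7 and 29.7 CPM in co, against 40.3, 113.5 and 70.1 CPM in uvr8. The ranges overlapped, but at each replicate number both hy5 and co lay below uvr8. In the fit without the replicate block, the log2 fold change was -1.31 for hy5 against uvr8 (SE 0.34; edgeR adjusted p = 0.0469). For co against uvr8 it was -1.25 (SE 0.33; edgeR adjusted p = 0.0362). Both calls were lost without uvr8 no-UV-B replicate 2, the highest library, with adjusted p of 0.249 in hy5 and 0.189 in co, and without several other libraries. In WT this gene stood at 19.6, 29.4 and 27.2 CPM with UV-B, against 60.9, 61.9 and 56.4 CPM without, and in no mutant was its UV-B effect called.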

How the data were processed

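Polyadenylated RNA was sequenced in 24 libraries, and the authors deposited raw read counts per gene, whole numbers without normalization. Extraction used a column kit with DNase and a stranded TruSeq kit, per the labels' protocols. The tools STAR 2.7.10b, HTSeq 0.11.3, bcl2fastq 2.20.0 and edgeR 3.42.4 come from the submitters' processing notes, which assign them no steps. The identifiers carry annotation version 6.1. How strand and multi-mapping reads were handled is not given in the sources used here, so near-identical copies and overlapping genes may share or lose reads. No sequence or coordinate is printed, as none of the files' build was used here. Groups and replicate numbers came from the sample titles.

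The genes, lists and comparisons were chosen with earlier results of these data known. CPM use column totals. Tests used R 4.3.3, limma 3.58.1 and edgeR 4.0.16 (TMM, filterByExpr, 1 mean per group) on the 18 mutant libraries. WT stayed out, since it chose the genes. There were 9 comparisons, each adjusted over all 13578 genes, and the SE is the log2 fold change divided by the square root of F. The fit was tested on simulated data. Alternatives were RLE scaling, no filter, DESeq2 1.42.0, all 24 libraries, only the strains compared, a replicate block, and each library left out.

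Genes were named by a rule: highest mean CPM, lowest WT ratio, largest called changes in each comparison, and those at the limits, here usually the first 1 or 2 of each. Its part on gene lists was not used, because no source used here pairs names with identifiers. Replicates differed beyond sampling noise in every group (chi-square per degree of freedom 21.7 to 134.7). Same-numbered libraries without UV-B deviated together from their group means (correlations 0.634 to 0.826, 0.650 to 0.813 and 0.207 to 0.271 for numbers 1, 2 and 3), so those comparisons count as paired. The pairing comes from the numbers in the titles. Fold changes, SE and adjusted p printed for single genes without UV-B come from the fit without the replicate block.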

Additional observations from a re-analysis of the deposited data

Results flagged for a closer look

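The UV-B effect differed between hy5 and uvr8 in 11 of the 292 genes by edgeR's test of the difference itself, each time lower in hy5, and between hy5 and co in 1 gene. Of all genes, 0.42% were called lower for hy5 minus uvr8 and 0.00736% for hy5 minus co. The count of 11 ranged from 4 to 24 with 1 library left out, without shares of all genes for those fits. With DESeq2 it was 25, against 1.11% of all genes. The difference of log2 fold changes, hy5 minus uvr8, was -2.23 for Cre12.g492700, -2.10 for Cre03.g207600, -1.39 for Cre06.g278089 and -1.29 for Cre12.g540700. The edgeR adjusted p was 0.000141, 0.0267, 0.045 and 0.00444 in that order. For Cre12.g492700 the difference hy5 minus co was -1.498 (edgeR adjusted p = 0.017).

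Cre12.g492700 and Cre12.g540700 passed against uvr8 in each of the 12 fits that leave out 1 library. Cre03.g207600 was lost in 8 of the 12, with adjusted p of up to 0.0857, and Cre06.g278089 in 9 of the 12, with adjusted p of up to 0.137. Cre03.g207600 was also low in uvr8 without UV-B, at 10.4, 11.6 and 9.98 CPM, and the part of that level in its difference was not tested.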

How the results depend on the processing

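Counts of called genes moved more than directions. Shares of all genes are given for DESeq2, the replicate block and the fit without libraries numbered 1, and not for the other alternatives. With DESeq2, 1 gene was lower in uvr8, against 0.109% of all genes, and 26 in co, against 0.414%. Differences numbered 1 for co minus uvr8, against 0.0586%, 25 for hy5 minus uvr8, against 1.11%, and 2 for hy5 minus co, against 0.0994%. Next to uvr8 without UV-B, 9 were lower and 18 higher in co, against 6.54% and 5.85%. In hy5 5 were lower and 8 higher there, against 3.96% and 2.93%. With only the strains compared, co had 0, hy5 74, hy5 minus uvr8 4, hy5 minus co 0, and without UV-B 3 were higher in co, 0 lower and 2 higher in hy5. With no filter co had 3. With all 24 libraries 5 were higher in co and 3 lower in hy5 against uvr8 without UV-B. Without the libraries numbered 1, chosen after seeing the data, uvr8 had 32 lower and 3 higher, against 4.85% and 4.93% of all genes. In co 42 were lower and 1 higher, against 0.97% and 2.84%, and in hy5 179 lower, against 6.83%. For hy5 minus uvr8 it was 23, against 0.889%, and for hy5 minus co 2, against 0.0294%. Next to uvr8 without UV-B, 5 were lower and 18 higher in co, against 4.35% and 3.4%. In hy5 4 were lower there, against 2.4%.

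The replicate block gave 33 lower genes in co, against 0.574% of all genes, and 179 in hy5, against 10.1%. It gave 50 for hy5 minus uvr8, against 2.33%, and 3 for hy5 minus co, against 0.133%. Without UV-B it gave 8 lower and 38 higher in co and 5 lower and 16 higher in hy5, both against uvr8, and it changed no call between hy5 and co. Between UV-B and no UV-B the numbers did not pair the libraries (correlations 0.0630 to 0.0955, 0.567 to 0.665 and -0.340 to -0.166), and in each strain 1 of 3 UV-B libraries correlated best with its own number.

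Leaving out 1 library at a time gave 0 to 7 lower genes in co, 67 to 152 in hy5, 4 to 24 for hy5 minus uvr8 and 0 to 1 for hy5 minus co. The 24 came without uvr8 UV-B replicate 1. The count was 4 without uvr8 UV-B replicate 2 or 3 or hy5 no-UV-B replicate 3, 5 without uvr8 no-UV-B replicate 2, 6 without hy5 UV-B replicate 2, and 7 without uvr8 no-UV-B replicate 1 or 3 or hy5 no-UV-B replicate 2. Without UV-B it gave 0 to 4 lower and 2 to 11 higher in co against uvr8, and 0 to 2 lower and 0 to 3 higher in hy5 against uvr8. Median log2 fold changes ranged from -0.36 to -0.24 in uvr8, -0.63 to -0.35 in co, -0.95 to -0.71 in hy5, -0.360 to -0.0616 for co minus uvr8, -0.66 to -0.47 for hy5 minus uvr8 and -0.47 to -0.21 for hy5 minus co. Without UV-B they ranged from 0.01 to 0.25 in co against uvr8, -0.02 to 0.18 in hy5 against uvr8 and -0.16 to 0.13 in hy5 against co. The rule found 160 genes with TMM-scaled CPM and 226 to 651 without 1 WT library. The causes were not tested. With 3 libraries a group, a change of the size of the median in uvr8 could not be told from none in a gene with the median SE of 0.28.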
